A study of Mus musculus with 4 samples.

Results

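The genes described here encode the proteasome, the protease complex that degrades ubiquitin-tagged proteins, together with its activators and assembly factors. They were chosen by symbol, as all genes named Psma to Psmg with a number that had a probe set assigned to that gene alone, and where a gene had several such probe sets the brightest one on average was kept. The rule found 49 of 22180 genes. Of these, 47 encode proteasome subunits, activators, an inhibitor or assembly chaperones, and Psmc3ip and Psme3ip1 share the name pattern without being part of the complex. Psmc3ip encodes a partner of the meiotic recombinases, and Psme3ip1 a protein that binds the activator Psme3. The alpha ring gene Psma4 had only probe sets that it shared with another gene model, so it is not among the members.

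Expression was measured on 4 Affymetrix arrays, with 2 samples from SRC-3 knockout (KO) mice and 2 from wild-type (WT) mice, to find genes that differ in stem and progenitor cells when SRC-3 is absent. SRC-3 is encoded by Ncoa3 and helps nuclear receptors and further transcription factors to activate their targets. All mice were male and 8 weeks old, and no treatment is listed for either genotype. RNA came from LSK cells, bone marrow cells sorted as negative for lineage markers and positive for Sca1 and c-Kit, the bone marrow fraction in which hematopoietic stem cells and early multipotent progenitors are found. The labels call the samples biological replicates. They give neither the strain, the knockout allele and the tissues in which it acts nor how many mice a sample holds. Unless the 2 samples of a genotype are from different animals, p-values reflect sample-to-sample spread alone, which may be technical.

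In the 26S proteasome a barrel-shaped 20S core holds the cutting sites inside its beta rings, and the alpha rings close its ends. The 19S cap binds ubiquitin chains, removes them and uses ATP to unfold the protein and feed it into the core. Interferons induce 3 alternative catalytic beta subunits that make the immunoproteasome, which blood cells also carry without stimulation and which favours peptides for MHC class I. Dedicated chaperones assemble the core and the base of the cap. In blood stem cells protein synthesis is low, and the cells depend on the removal of damaged proteins.

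Upstream sequences are printed first for 6 genes, because the changes below are measured at the RNA level and these windows let the members of smallest p, Psmg3 and Psmb10, be read beside Psmg1, both immunoproteasome genes of the MHC region and the constitutive catalytic subunit Psmb5. Each line gives the 250 bases before the start site, from RefSeq (build GRCm38.p6), 5′ to 3′ along the gene's strand. Capitals mark matches, on either strand, to the motifs searched.
Psmg3, chr5:139826895-139827144, minus strand: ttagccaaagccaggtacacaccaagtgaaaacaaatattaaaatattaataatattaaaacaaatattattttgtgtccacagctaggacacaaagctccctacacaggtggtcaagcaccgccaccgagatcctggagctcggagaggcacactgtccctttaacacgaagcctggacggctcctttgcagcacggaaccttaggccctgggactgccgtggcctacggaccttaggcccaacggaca
Psmg1, chr16:95990961-95991210, minus strand: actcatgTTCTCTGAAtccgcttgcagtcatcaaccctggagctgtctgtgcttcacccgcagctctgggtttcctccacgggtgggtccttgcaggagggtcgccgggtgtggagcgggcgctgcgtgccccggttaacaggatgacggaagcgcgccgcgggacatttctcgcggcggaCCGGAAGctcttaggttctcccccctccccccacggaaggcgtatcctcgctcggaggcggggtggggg
Psmb10, chr8:105938393-105938642, minus strand: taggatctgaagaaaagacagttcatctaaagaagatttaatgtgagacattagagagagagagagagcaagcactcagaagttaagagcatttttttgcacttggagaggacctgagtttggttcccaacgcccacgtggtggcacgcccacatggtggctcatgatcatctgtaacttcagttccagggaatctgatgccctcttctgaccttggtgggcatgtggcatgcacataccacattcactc
Psmb9, chr17:34187331-34187580, minus strand: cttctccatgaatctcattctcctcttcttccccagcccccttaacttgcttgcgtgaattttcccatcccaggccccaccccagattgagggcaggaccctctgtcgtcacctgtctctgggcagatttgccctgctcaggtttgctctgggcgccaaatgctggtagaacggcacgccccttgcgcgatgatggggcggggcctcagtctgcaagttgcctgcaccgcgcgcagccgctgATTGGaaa
Psmb8, chr17:34197945-34198194, plus strand: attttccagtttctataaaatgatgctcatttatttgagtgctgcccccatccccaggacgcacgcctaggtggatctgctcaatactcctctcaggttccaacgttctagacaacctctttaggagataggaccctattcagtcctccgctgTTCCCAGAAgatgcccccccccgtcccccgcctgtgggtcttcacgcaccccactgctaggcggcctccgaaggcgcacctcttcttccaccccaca
Psmb5, chr14:54617996-54618245, minus strand: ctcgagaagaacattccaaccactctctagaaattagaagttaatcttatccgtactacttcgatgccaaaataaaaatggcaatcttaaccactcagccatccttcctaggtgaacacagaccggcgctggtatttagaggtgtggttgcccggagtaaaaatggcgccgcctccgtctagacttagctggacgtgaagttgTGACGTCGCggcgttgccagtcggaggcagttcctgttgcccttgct

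The motifs were the CCAAT box (CCAAT), an ETS core (CCGGAAG), the core of the antioxidant response element (TGACNNNGC), to which the proteasome regulator Nfe2l1 binds, the core of the interferon-stimulated response element (GAAANNGAA), the gamma-activated site (TTCNNNGAA) and the cAMP response element (TGACGTCA). A window was listed for 41 of the 49 members and for 27025 genes in all. The ETS core occurred in 13 of 41 members (31.7%), against 7.83% of all genes and 19.1% of the 1539 genes with a window and a mean array value of 8 or more. The CCAAT box occurred in 16 members (39.0%) and in 37.5% of all genes. Core antioxidant elements occurred in 5 members (12.2%), Psmb5, Psmb6, Psmc6, Psmd12 and Psmd9, and in 11.5% of all genes. The interferon element core was in Psmb3, Psmd4 and Psmd9 (7.32%), against 8.18% of all genes, and the gamma-activated site in Psmb8 and Psmg1 (4.88%), against 8.13%. No member held the cAMP element, which 1.77% of all genes had. A match is a string of letters and not a shown binding site. On the RefSeq annotation Psmb9 and Tap1, which encodes a chain of the MHC class I peptide transporter, lie next to each other, and the Psmb9 window reaches into Tap1. Psmb8 is the next gene on the other side of Tap1.

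The knockout was visible in the targeted gene. Ncoa3 stood at 5.35 and 5.09 in KO, against 7.76 and 7.05 in WT (log2), a difference of -2.19 ± 0.27 (SE, limma adjusted p = 0.038), and its adjusted p was 0.716 without KO replicate 1, 0.551 without KO replicate 2 and 0.095 when all 41345 probe sets were tested. Between arrays of 1 genotype the values correlated at 0.992 in KO and 0.986 in WT, and between genotypes at 0.977 to 0.982, across genes, which are not independent replicates. Kit and Cd34 were bright, and for each both KO arrays lay below both WT arrays, as for 22.9% of all genes. Kit stood at 9.43 and 9.34 in KO against 10.33 and 9.65 in WT, a difference of -0.60 ± 0.23 (SE, limma adjusted p = 0.25). Cd34 stood at 10.15 and 10.08 in KO against 10.86 and 10.73 in WT, a difference of -0.68 ± 0.13 (SE, limma adjusted p = 0.085). The gene for Sca1 was not analysed here.

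Proteasome genes had higher mean levels in KO almost throughout, by a moderate amount, and none passed the threshold of an adjusted p under 0.05. Among the 49 members, 46 had a higher mean in KO, against 49.7% of all genes. The median difference was 0.52 on the log2 scale, or 1.43-fold, against -0.001 over all genes. By limma with Benjamini-Hochberg adjustment over all genes, 0 members were called higher and 0 lower, where 0.397% of all genes were called higher and 0.113% lower. The smallest adjusted p was 0.059, for Psmg3. At an unadjusted p under 0.05, 35 members (71.4%) were higher in KO and 0 lower, against 10.5% and 6.93% of all genes. Both KO arrays lay above both WT arrays for 41 members (83.7%) and below for 1, Psmb11, against 25.1% and 22.9% of all genes. Restricted to the 47 genes of the complex, 34 had an unadjusted p under 0.05 with a higher KO mean, and both KO arrays lay above both WT arrays for 40.

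Such shares also differ with the level at which a gene was measured. Of the 49 members, 35 had a mean of 8 or more over the 4 arrays, a level that 1945 genes reached, and those 1945 genes had a median difference of 0.16. At that level 26 of 35 members (74.3%) were higher in KO at an unadjusted p under 0.05 and 0 lower, against 27.8% and 9.56% of all such genes, and both KO arrays lay above both WT arrays for 30 members (85.7%), against 48.2%. In bands of 1 log2 unit the members' median was 0.52 from 8 to 9 (11 members), 0.42 from 9 to 10 (13 members) and 0.56 from 10 to 11 (10 members). The medians of all genes in those bands were 0.14, 0.23 and 0.15. After quantile normalization of the 4 arrays the members' median was 0.38, and 24 members were higher at an unadjusted p under 0.05, against 8.89% of all genes. Cyclic loess normalization gave 0.37 and 23 members, against 9.52% of all genes.

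**Figure D1:**
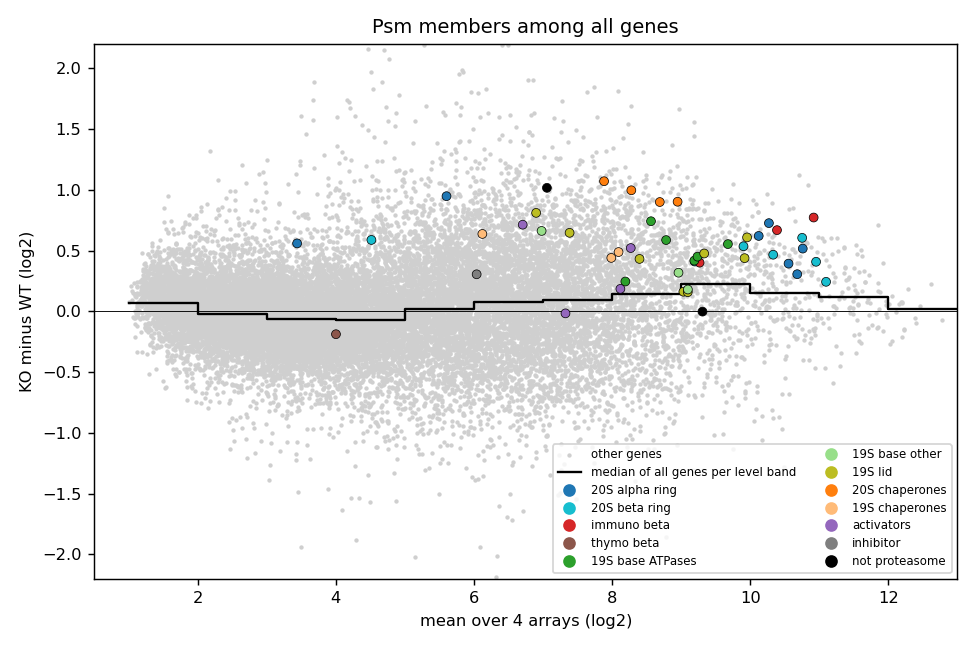
Difference between KO and WT (log2) against the mean over the 4 arrays (log2) for every gene; grey points are the other genes, coloured points the 49 Psm members by role, and the black steps the median of all genes per level band, with 30 genes outside the vertical range. The members with a mean of 8 or more lie mostly above the steps, around a median of 0.52 over all members.

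The spread between arrays decides how these values can be read. The 2 KO arrays were close together, with a median gap of 0.050 over the members, while the gap between the 2 WT arrays had a median of 0.208. The WT gap was the larger one for 39 of 49 members, and for 88.2% of genes with a mean of 8 or more. WT replicate 1 lay above WT replicate 2 for 19 members and below it for the other 30. Without WT replicate 1, and again without WT replicate 2, 33 members passed the adjusted threshold, all higher in KO, while without either KO array 0 did. The calls over all genes moved in the same way, with 1442 of 22180 higher without WT replicate 1, 1730 without WT replicate 2 and 0 without either KO array. At an unadjusted p under 0.05 the count was 41 without WT replicate 1, 40 without WT replicate 2, 6 without KO replicate 1 and 5 without KO replicate 2. The shares of all genes in these fits were 16.0%, 14.0%, 3.77% and 4.39%, in the same order. Without WT replicate 2 the members with a higher mean in KO numbered 42. In those 4 fits the members' median stayed between 0.47 and 0.52. Because 1 array then stands alone in its genotype, its spread is assumed to equal that of the other genotype.

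**Figure D2:**
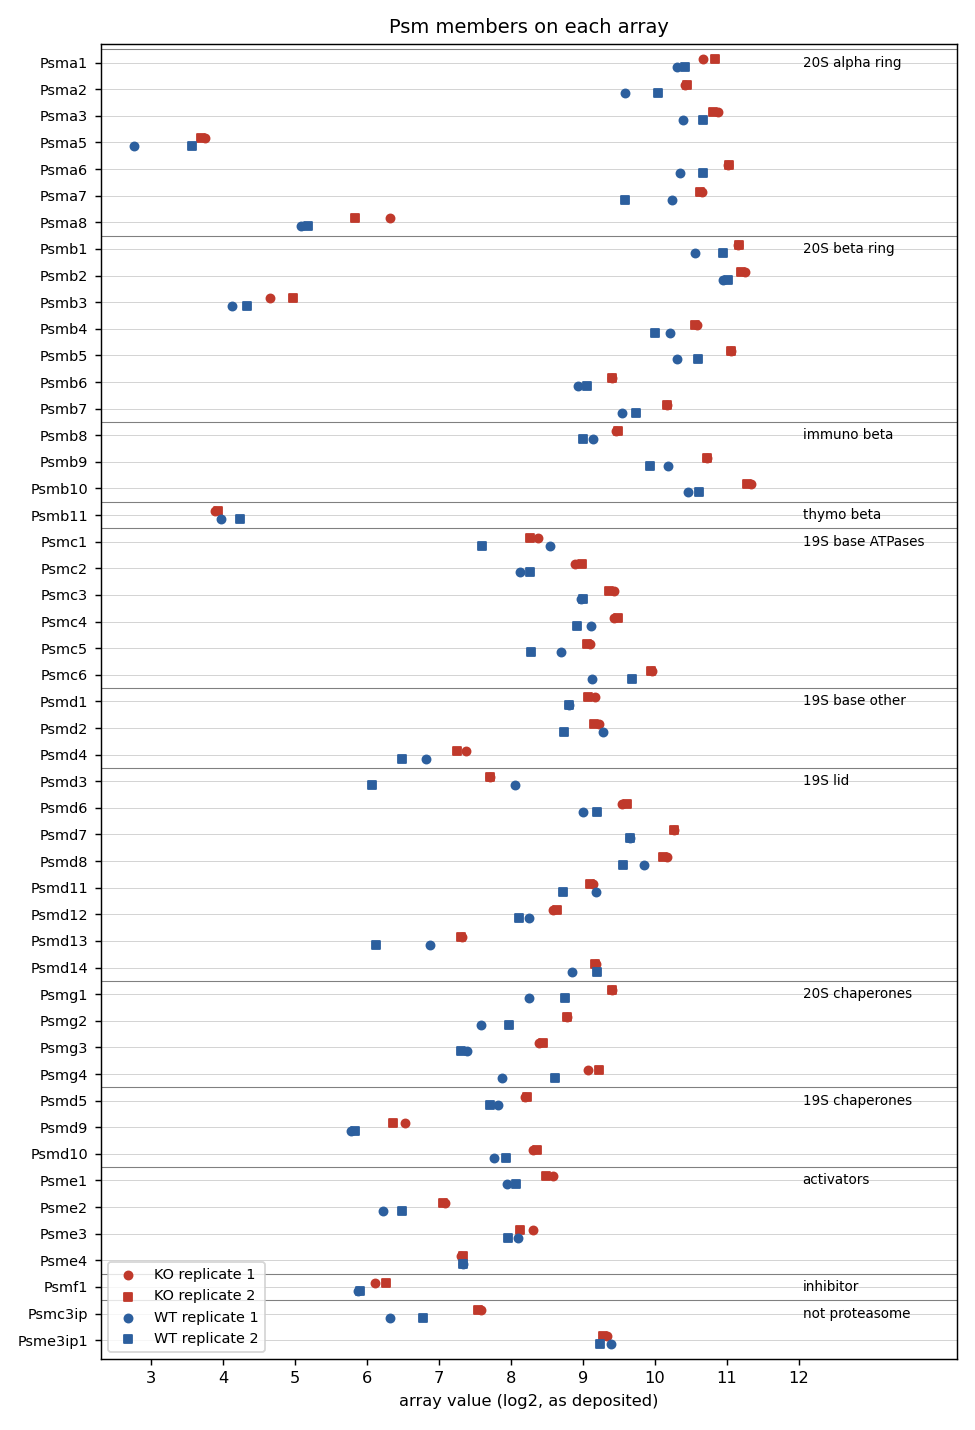
Value of each Psm member on each array (log2, as deposited), KO in red and WT in blue, circles for replicate 1 and squares for replicate 2, grouped by role. Both KO points lie right of both WT points for 41 of 49 members, and Psmd3 and Psmc1 have the widest gaps between WT arrays.

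Among the role groups, the largest median difference was that of the 4 Psmg chaperones, which help to build the 20S core. Pomp, a maturation factor of this core outside the symbol rule, differed by 0.47. Psmg1 with Psmg2, and Psmg3 with Psmg4, form pairs that guide the alpha subunits into a ring. All 4 Psmg genes were higher in KO at an unadjusted p under 0.05. This held for 10.5% of all genes and 27.8% of genes with a mean of 8 or more. Their differences ran from 0.90 to 1.07, with a median of 0.95, or 1.93-fold. Psmg3 stood at 8.39 and 8.45 in KO, against 7.39 and 7.31 in WT, a difference of 1.07 ± 0.16 (SE, limma adjusted p = 0.059). Psmg2 stood at 8.78 and 8.77 in KO and at 7.58 and 7.98 in WT, a difference of 0.996 ± 0.19 (adjusted p = 0.085). A dimmer probe set of Psmg2 differed by 0.30. The values of Psmg4 were 9.06 and 9.22 in KO, against 7.87 and 8.61 in WT, with a difference of 0.90 ± 0.26 (adjusted p = 0.16), which was 0.53 without WT replicate 1 and 1.27 without WT replicate 2. For these 3 genes no WT array reached a KO array, which held for 25.1% of all genes. Over genes with a mean of 8 or more it held for 48.2%. Psmg1 differed by 0.90 ± 0.20 (adjusted p = 0.11). Psmg3 passed the adjusted threshold after the arrays were centred on their medians and when genes below the median level were left out, and did not after quantile or cyclic loess normalization.

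Chaperones of the 19S base were higher by less. Psmd5, Psmd9 and Psmd10 each hold ATPases of the base until the ring is complete. Psmd9 stood at 6.52 and 6.36 in KO, against 5.77 and 5.84 in WT, a difference of 0.64 ± 0.18 (SE, limma adjusted p = 0.15). Psmd10, also named gankyrin, stood at 8.31 and 8.37 in KO and at 7.77 and 7.93 in WT, differing by 0.49 ± 0.16. Psmd5 stood at 8.19 and 8.23 in KO and at 7.83 and 7.71 in WT, differing by 0.44 ± 0.16. All 3 were higher in KO at an unadjusted p under 0.05 and had both KO arrays above both WT arrays. These shares were 10.5% and 25.1% over all genes, and 27.8% and 48.2% over genes with a mean of 8 or more.

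The 3 immunoproteasome subunits had a median difference of 0.67, or 1.59-fold, and each was higher in KO at an unadjusted p under 0.05. Psmb10, which takes the place of Psmb7, stood at 11.33 and 11.28 in KO, against 10.46 and 10.61 in WT. Its difference of 0.77 ± 0.12 (SE, limma adjusted p = 0.063) had the second smallest p among the members. Psmb9, which takes the place of Psmb6, stood at 10.73 and 10.72 in KO, against 10.18 and 9.93 in WT, a difference of 0.67 ± 0.14 (adjusted p = 0.10). Psmb8, which takes the place of Psmb5, stood at 9.45 and 9.48 in KO, against 9.14 and 8.998 in WT, a difference of 0.40 ± 0.14 (adjusted p = 0.23). Both KO arrays lay above both WT arrays for each of the 3. Over genes with a mean of 8 or more this held for 48.2%, and 27.8% were higher at an unadjusted p under 0.05. Psmb10 was called when the arrays were median-centred and when dim genes were left out.

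Their constitutive counterparts were also higher at an unadjusted p under 0.05. Psmb5, the subunit with chymotrypsin-like activity, stood at 11.06 and 11.05 in KO, against 10.30 and 10.60 in WT, a difference of 0.61 ± 0.14 (SE, limma adjusted p = 0.12). Psmb6, with caspase-like activity, stood at 9.40 and 9.40 in KO and at 8.93 and 9.06 in WT, a difference of 0.41 ± 0.14 (adjusted p = 0.22). Psmb7, with trypsin-like activity, stood at 10.17 and 10.17 in KO and at 9.54 and 9.73 in WT, a difference of 0.54 ± 0.14 (adjusted p = 0.14). The change of each immunoproteasome subunit was set against that of its counterpart within each array. Psmb8 changed by -0.20 relative to Psmb5, Psmb9 by 0.26 relative to Psmb6 and Psmb10 by 0.24 relative to Psmb7. The two-sided exact permutation test over arrays gave p = 0.67, 0.33 and 0.33 for these 3 pairs (adjusted 0.67, 0.50 and 0.50), and 0.33 is the smallest p that 2 against 2 arrays allow. The test could therefore not pass 0.05 for any pair, and the values are a description. When single arrays were omitted, the Psmb8 value ran from -0.42 to 0.011, the Psmb9 value from 0.067 to 0.45 and the Psmb10 value from 0.21 to 0.26. For Psmb10 relative to Psmb7 the SD between arrays was 0.028 in KO and 0.033 in WT.

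All 14 measured alpha and constitutive beta genes of the 20S core, with the testis subunit Psma8 among them, had both KO arrays above both WT arrays. Their median difference was 0.53, and 11 were higher at an unadjusted p under 0.05. These shares were 25.1% and 10.5% over all genes, and 48.2% and 27.8% over genes with a mean of 8 or more. In the alpha ring Psma6 stood at 11.01 and 11.02 in KO, against 10.34 and 10.66 in WT, a difference of 0.52 ± 0.15 (SE, limma adjusted p = 0.16). Psma8, an alpha subunit known from the proteasome of the testis, stood at 6.32 and 5.83 in KO, against 5.08 and 5.18 in WT. Its 0.95 ± 0.22 (adjusted p = 0.11) was the largest difference among these 14 genes. Psma7 differed by 0.73, Psma2 by 0.62, Psma1 by 0.39 and Psma3 by 0.31. Psma5 was dim, at 3.75 and 3.69 in KO and at 2.76 and 3.56 in WT, a difference of 0.56 ± 0.27 (adjusted p = 0.36). A still dimmer probe set of Psma5 differed by 0.034. In the beta ring the structural subunits Psmb3, Psmb4, Psmb1 and Psmb2 differed by 0.59, 0.47, 0.41 and 0.24. Psmb2 had the narrowest gap of these, with 11.25 and 11.19 in KO against 10.95 and 11.01 in WT (adjusted p = 0.34, 95% interval -0.03 to 0.52). Psmb11, the thymoproteasome subunit of cortical epithelium, stood at 3.88 and 3.94 in KO and 3.97 and 4.23 in WT, below the median gene (4.32), with an adjusted p of 0.65.

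In the 19S cap all 17 measured Psm genes were higher on average in KO. Their median difference was 0.45, 12 had both KO arrays above both WT arrays and 11 were higher at an unadjusted p under 0.05. These shares were 25.1% and 10.5% over all genes, and 48.2% and 27.8% over genes with a mean of 8 or more. Sem1, a further lid subunit outside the symbol rule, differed by 0.28 ± 0.15 (SE). Among the 6 ATPases of the base, which unfold the substrate, Psmc2 differed most. It stood at 8.89 and 8.98 in KO, against 8.12 and 8.26 in WT, a difference of 0.74 ± 0.16 (SE, limma adjusted p = 0.10). A dimmer probe set of Psmc2 differed by 1.11, with a wide WT spread, at 7.96 and 8.05 in KO against 6.27 and 7.51 in WT. Psmc5 stood at 9.10 and 9.05 in KO and at 8.70 and 8.28 in WT, a difference of 0.59 ± 0.19 (adjusted p = 0.19). Psmc6, Psmc4 and Psmc3 differed by 0.55, 0.45 and 0.42. Psmc1 was the ATPase whose groups overlapped, at 8.37 and 8.26 in KO against 8.55 and 7.59 in WT (difference 0.25, 95% interval -0.49 to 0.99), and without WT replicate 2 its difference was -0.23.

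The other base genes and the lid were more mixed. Psmd4, a ubiquitin receptor, stood at 7.38 and 7.25 in KO, against 6.82 and 6.48 in WT, a difference of 0.66 ± 0.19 (SE, limma adjusted p = 0.16). Psmd1, a large scaffold subunit, stood at 9.17 and 9.07 in KO and at 8.80 and 8.80 in WT, a difference of 0.32 ± 0.15 (adjusted p = 0.33). Psmd2, the other large scaffold, stood at 9.23 and 9.15 in KO, between the WT values of 9.28 and 8.73 (difference 0.18, 95% interval -0.32 to 0.68). Psmd7, the lid partner of the deubiquitinase Psmd14, had the tightest replicates of the cap, at 10.26 and 10.26 in KO and at 9.65 and 9.65 in WT, and differed by 0.61 ± 0.13 (adjusted p = 0.10). Psmd14 itself differed by 0.16, with overlapping groups. Psmd6 stood at 9.54 and 9.61 in KO, against 8.99 and 9.20 in WT, a difference of 0.48 ± 0.15. Psmd13, Psmd8 and Psmd12, further structural subunits of the lid, differed by 0.81, 0.44 and 0.43. Psmd11 had overlapping groups, at 9.14 and 9.09 in KO and at 9.18 and 8.73 in WT (difference 0.16, 95% interval -0.30 to 0.62), and its sign turned after quantile normalization, at -0.0075. Psmd3, singled out here after its values were seen, stood at 7.71 and 7.71 in KO and at 8.05 and 6.07 in WT, so its mean difference of 0.65 lies within the WT spread.

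**Figure D3:**
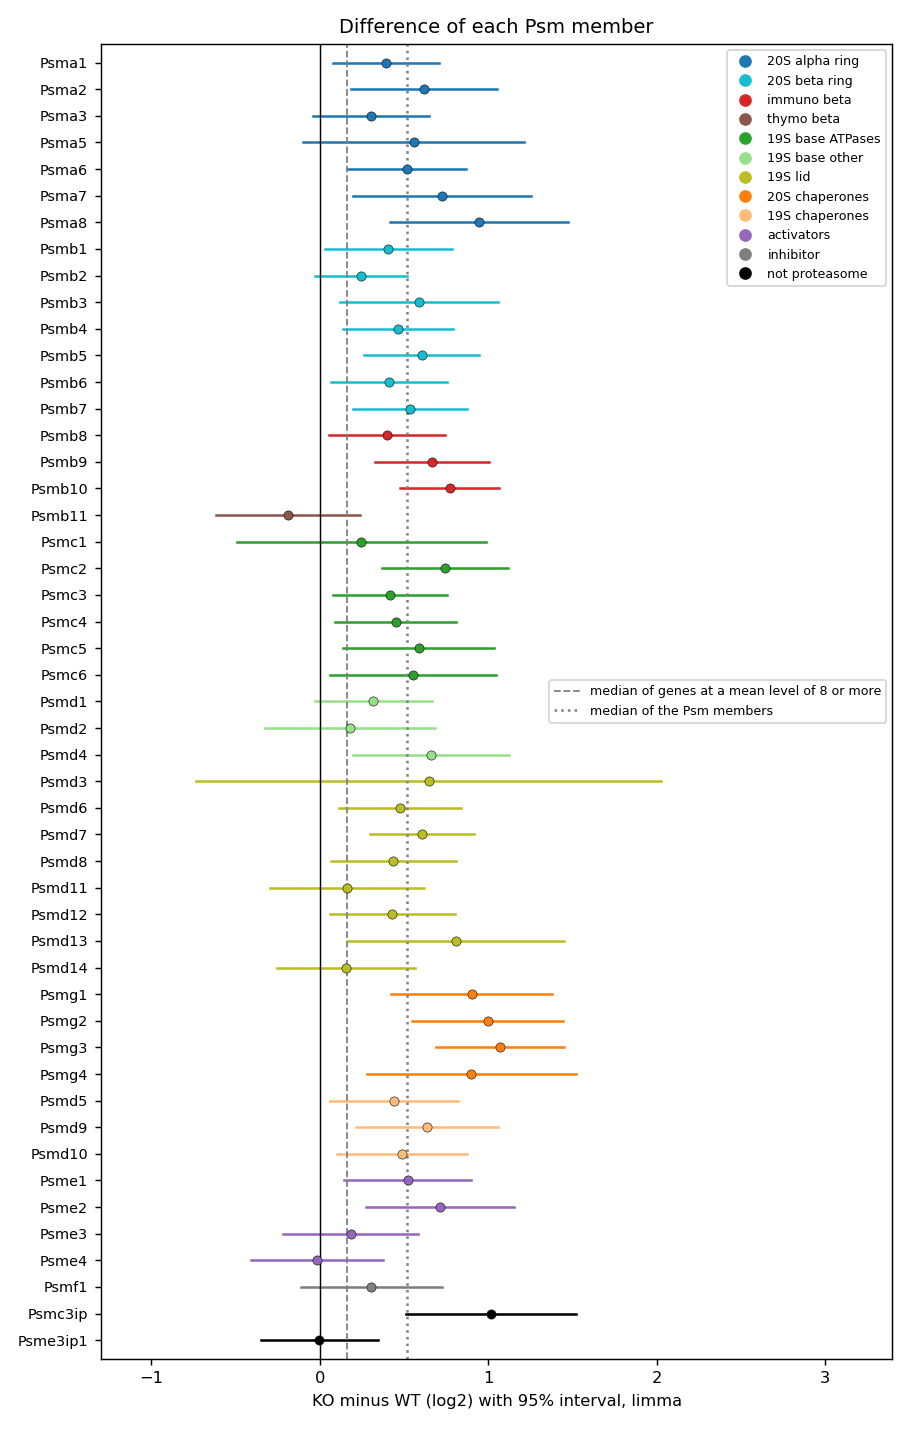
Difference between KO and WT (log2) of each Psm member with its 95% limma interval, not adjusted for the number of genes, coloured by role; the dotted line is the members' median (0.52) and the dashed line the median of genes with a mean of 8 or more (0.16). Psmg3 lies furthest right, at 1.07, and Psmb11, Psme4 and Psme3ip1 are the members left of 0.

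Of the 4 activators, 3 had both KO arrays above both WT arrays, Psme1, Psme2 and Psme3, against 25.1% of all genes. At an unadjusted p under 0.05, 2 were higher, against 10.5% of all genes. Psme1 and Psme2 encode the subunits of the interferon-inducible activator PA28, which opens the core's gate. Psme2 stood at 7.08 and 7.05 in KO, against 6.22 and 6.48 in WT, a difference of 0.71 ± 0.18 (SE, limma adjusted p = 0.13), and Psme1 at 8.58 and 8.48 in KO, against 7.95 and 8.07 in WT, a difference of 0.52 ± 0.16 (adjusted p = 0.17). Both had an unadjusted p under 0.05. Psme3, the nuclear relative of that pair, stood at 8.31 and 8.12 in KO and at 8.10 and 7.96 in WT, a difference of 0.19 with a 95% interval of -0.22 to 0.59. Psme4, the activator PA200, stood at 7.30 and 7.34 in KO and at 7.33 and 7.34 in WT, a difference of -0.016 with an interval of -0.41 to 0.37. Whether the activators differed from each other was not tested. Psmf1, which encodes the inhibitor PI31, stood at 6.12 and 6.27 in KO and at 5.87 and 5.90 in WT, a difference of 0.31 ± 0.17 (adjusted p = 0.43).

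Of the members outside the complex, Psmc3ip stood at 7.59 and 7.54 in KO, against 6.31 and 6.78 in WT, a difference of 1.02 ± 0.21 (SE, limma adjusted p = 0.098). Psme3ip1 stood at 9.34 and 9.28 in KO and at 9.38 and 9.24 in WT, and differed by -0.0019 (95% interval -0.35 to 0.34).

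In 4 further lists the median differences were below the members' 0.52. Signs were mixed in the 3 lists of the ubiquitin-proteasome pathway. The list of interferon factors and peptide loading was mostly higher in KO, with a median of 0.37. Across their 43 measured genes 24 had a higher mean in KO, 10 of them among the 11 genes of the interferon and peptide-loading list. At an unadjusted p under 0.05, 10 were higher and 3 lower in KO, against 10.5% and 6.93% of all genes. Both KO arrays lay above both WT arrays for 16 and below for 6, against 25.1% and 22.9% of all genes. Of the 16, 8 were in the interferon and peptide-loading list. In limma 0 of the 43 passed the adjusted threshold, and the median difference was 0.078. The list of further subunits, assembly factors and cofactors had a median of 0.077 over 10 genes. In it, 4 genes were higher and 2 lower with an unadjusted p under 0.05. Pomp, the maturation factor of the 20S core, stood at 10.34 and 10.34 in KO, against 9.84 and 9.90 in WT, a difference of 0.47 ± 0.13 (SE, limma adjusted p = 0.145). The cap-associated deubiquitinase Usp14 differed by 0.55 ± 0.18 and the thioredoxin-like cap protein Txnl1 by 0.55 ± 0.15. Zfand2a, a proteasome-binding protein induced by stress, stood at 7.14 and 7.12 in KO, against 7.83 and 7.51 in WT, a difference of -0.54 ± 0.18 (adjusted p = 0.21).

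The list of regulators of proteasome transcription, which also holds the repressor Bach1 and Ngly1, an enzyme that processes the Nfe2l1 protein, had a median of -0.11 over 10 genes. Nfe2l1, which induces proteasome subunits when the complex is impaired, stood at 6.56 and 6.42 in KO and at 6.87 and 6.40 in WT, with overlapping groups (limma adjusted p = 0.80). Its protein is controlled by processing and degradation, which an array does not measure. Of the subunits of the CCAAT-binding factor NF-Y, Nfyb differed by 0.72 ± 0.19 and Nfya by -0.41 ± 0.17 (SE). Bach1 and Mafk, with the next smallest p-values, differed by -0.24 and -0.29. Genes of ubiquitin activation, shuttling and the p97 segregase had a median of -0.0083 over 12 genes. When p was not adjusted, 2 were higher and 1 lower, against 10.5% and 6.93% of all genes. Ufd1 and Faf1, cofactors of p97, differed by 0.48 ± 0.16 and 0.64 ± 0.19, the activating enzyme gene Uba6 by -0.53 ± 0.20 and Rad23b by 0.29 ± 0.20 (SE).

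Interferon factors and peptide-loading genes, which act with the immunoproteasome, had a median of 0.37 over 11 genes, with 3 higher and 0 lower when p was not adjusted. Of the 11, 10 had a higher mean in KO and 8 had both KO arrays above both WT arrays, and the median was 0.15 without WT replicate 2. Over all genes 49.7% had a higher mean in KO and 25.1% had both KO arrays above both WT arrays. At an unadjusted p under 0.05, 10.5% of all genes were higher and 6.93% lower. Among genes with a mean of 8 or more, 48.2% had both KO arrays above both WT arrays. Stat2 stood at 7.42 and 7.36 in KO, against 6.93 and 6.58 in WT, a difference of 0.63 ± 0.19 (SE, limma adjusted p = 0.17). Erap1, a peptide-trimming enzyme, differed by 0.45 ± 0.15, Irf8 by 0.47 ± 0.18 and Irf1 by 0.41 ± 0.18. Tap1, the neighbour of Psmb9, stood at 10.42 and 10.36 in KO, against 10.24 and 9.79 in WT (adjusted p = 0.345). Tap2, the other neighbour of Psmb8, was the list member with a lower mean in KO. It stood at 6.63 and 6.56 in KO, between the WT values of 7.68 and 6.10, a difference of -0.29.

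Markers of some other cells had higher levels in KO as well, those of neutrophils and part of the erythroblast and MHC class II genes, and their part in these differences was not tested. The arrays measured bulk RNA, so more cells of a type and more RNA per cell cannot be told apart. Of 9 neutrophil markers, 8 had both KO arrays above both WT arrays, against 25.1% of all genes. The list's mean log2 level was 5.17 and 5.17 in KO, against 4.17 and 4.599 in WT. Of 9 erythroblast markers 4 were measured and 3 of these were above, with list means of 5.35 and 5.56 in KO and 3.61 and 3.63 in WT. Rhag and Ermap differed by 3.67 and 3.97, while Slc4a1 was below, by -0.96. Macrophage and dendritic cell markers had means of 5.97 and 5.99 in KO and 5.69 and 5.68 in WT, with 5 of 11 above and a median difference of 0.073. Of all these markers, Rhag, Ermap, H2-Aa and H2-Eb1 passed the adjusted threshold in limma, each higher in KO. B cell markers had means of 4.37 and 4.25 in KO and 4.51 and 4.49 in WT, and T and NK cell markers 4.28 and 4.36 in KO and 4.13 and 4.48 in WT. Of 7 measured genes of LSK cells and early progenitors, 6 had both KO arrays below both WT arrays, against 22.9% of all genes. The list means were 7.06 and 7.05 in KO and 7.91 and 7.57 in WT. No detection calls were used, so no marker could be called absent.

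**Figure D4:**
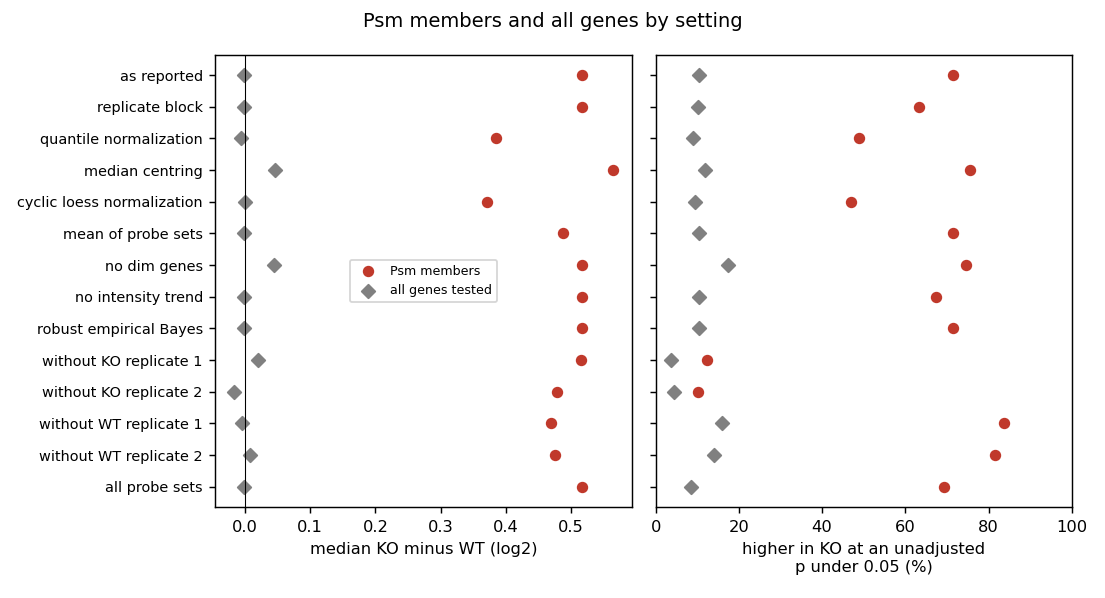
Left, median difference between KO and WT (log2) of the Psm members (red) and of all genes tested (grey) under each setting; right, percentage of each that was higher in KO at an unadjusted p under 0.05. The members' median lies between 0.37 and 0.56 in every setting drawn, while the share of members at an unadjusted p under 0.05 is lowest without a KO array, at 6 and 5 members.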

How the data were processed

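The authors deposited log2 values for 41345 probe sets, with 1 column for each sample. Per the submitters' processing notes RMA and Affymetrix Expression Console 1.2.1 were used, with settings and build not given in the sources used here. The log2 scale was taken from the values (0.375 to 12.8, array medians 3.84 to 4.05). Whether dim probe sets understate differences was not tested. A sequencing depth does not apply, and 2 arrays per genotype limit the precision.

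Gene symbols came from GEO's annotation of the platform. Of the probe sets 23521 had 1 gene symbol, which gave 22180 genes, and 1814 with several genes and 16010 not listed were left out. The difference of KO minus WT was fitted with limma 3.58.1 (under R 4.3.3) on all 22180 genes, with empirical Bayes and an intensity trend, two-sided, with Benjamini-Hochberg adjustment over all genes and a threshold of 0.05. The model was tested on simulated data with equal spread in both genotypes. In these arrays the WT gaps were mostly the larger ones, a setting that was not simulated. SE are moderated and intervals cover 95%. Pairs of subunits were compared by exact permutation (scipy 1.17.1).

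The members and lists were chosen with earlier results of these data known. Array values were printed for members past the threshold, Psmb5 to Psmb10, Psme1 to Psme4, Psmf1 and, per other role group, the 2 genes of smallest and the 1 of largest p, and up to 4 genes of smallest p per pathway list. Psmd3, Nfe2l1, Tap1, Tap2, Kit and Cd34 lie outside this rule and were added with their values known. Alternatives were the replicate number as a block, 3 other scalings, the mean of probe sets, a filter on dim genes, other variance models, all probe sets, and each array left out.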

Additional observations from a re-analysis of the deposited data

How the results depend on the processing

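The members' median difference, 0.52 as reported, was 0.38 after quantile normalization, 0.37 after cyclic loess (an alternative chosen after seeing the data) and 0.56 after median centring, and ran from 0.47 to 0.52 with each array left out in turn. In that order of scalings, quantile then loess, the medians were 0.39 and 0.36 for the 20S core, 0.33 and 0.31 for the 19S cap, 0.77 and 0.77 for the assembly chaperones and 0.24 and 0.23 for the activators, and loess gave 0.51 for the immunoproteasome subunits. Median centring gave 0.40 for the activators, and the mean of probe sets 0.65 for the assembly chaperones. With each array left out the 20S core ran from 0.37 to 0.62, the 19S cap from 0.37 to 0.55, the activators from 0.28 to 0.43, the assembly chaperones from 0.60 to 1.03, those of the 20S core from 0.73 to 1.17, the immunoproteasome subunits from 0.54 to 0.70 and the interferon and peptide-loading list from 0.15 to 0.55. Loess gave -0.042 for the cofactor list.

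The count of members past the adjusted threshold, 0 as reported, was 2 after median centring and 2 without dim genes, Psmb10 and Psmg3 in both, and ran from 0 to 33 with an array left out. At an unadjusted p under 0.05 it was 23 under loess and ran from 5 to 41, the lower members ran from 0 to 2 and those with a higher mean from 42 to 47. Over all genes, 88 higher and 25 lower calls became 196 and 51 after median centring, 208 and 81 without dim genes and 10 higher calls with all probe sets. Quantile normalization gave 61 lower calls and loess 69, and with an array left out the calls ran from 0 to 1730 higher and from 0 to 1272 lower. The cause of these shifts was not tested. The labels number the replicates and do not state whether samples of the same number were paired. With the replicate block, 0 members passed the adjusted threshold and 31 had an unadjusted p under 0.05 and a higher KO mean. The difference of replicate 1 and 2 in KO correlated with that in WT at 0.11 across genes.

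Psmd11 turned to -0.0075 after quantile normalization, and Psme4 and Psme3ip1 to 0.031 and 0.046 after median centring. With an array left out Psmc1 ran from -0.23 to 0.72, Psmd11 from -0.065 to 0.39, Psmd2 from -0.095 to 0.46, Psmd3 from -0.34 to 1.64, Psmd14 from -0.015 to 0.33, Psme4 from -0.034 to 0.0018 and Psme3ip1 from -0.073 to 0.069. The array signal gives no detection limit here.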

Other observations

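Probe sets assigned to several genes were not used for the members. The brighter of a pair shared by Psma4, an alpha ring subunit, and AY074887 stood at 8.49 and 8.51 in KO and at 8.00 and 7.94 in WT (log2). The dimmer one stood at 3.37 and 3.43 in KO and at 2.90 and 3.19 in WT. Both had the KO arrays above the WT arrays. A probe set shared by Psme2 with 9930111J21Rik1 and 9930111J21Rik2 ran the other way from the one used for Psme2, at 6.44 and 6.27 in KO and at 6.74 and 6.86 in WT. A probe set shared by Psmd1 and Armc9 stood at 5.53 and 5.35 in KO and at 5.54 and 5.55 in WT. Among members with a second probe set of their own, Psmg2 differed by 0.30 in its dimmer set, against 0.996 in the one used, and Psma5 by 0.034, against 0.56.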
